A study of Homo sapiens with 9 samples.

Results

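The genes described here were processed pseudogenes of ribosomal protein genes to which reads of BEAS-2B cells were assigned, 46 of the 1600 ribosomal protein pseudogenes in a count table of 63187 genes. They were chosen by annotation and by 1 measured value, the lowest count in any library. A member had a pseudogene biotype, a symbol made of a ribosomal protein gene name followed by P and a number, and at least 20 counts in each of 9 libraries. Of the 1600 pseudogenes, 663 had at least 1 count in some library, and the 46 members held between 89.1% and 92.4% of all ribosomal protein pseudogene counts of a library. The members descended from 34 parent genes, 35 from proteins of the large ribosomal subunit and 11 from proteins of the small subunit.

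The BEAS-2B line was derived from normal human bronchial epithelium and made immortal with viral genes. Cells were left untreated (control), exposed to aerosol condensate of the carrier liquid alone, propylene glycol and vegetable glycerine (PG/VG), or exposed to condensate of an e-cigarette liquid with 18 mg/mL nicotine and Virginia tobacco flavor (EC). Both exposures lasted 24 h at a 2% (v/v) dilution, and each group had 3 libraries, 1 in each of batches 2, 3 and 4. Messenger RNA was captured on poly-T beads before sequencing, so an RNA needed a stretch of adenines to enter a library. The work used 1 cell line, and the batch was in the model. The p-values therefore measured how much the differences between groups varied from batch to batch of that line.

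Assigned reads ranged from 16168260 to 24917838 per library, and all 3 controls, at 16168260 to 17882770, lay below the 6 exposed libraries, at 18427225 to 24917838. Levels were therefore compared as CPM, counts scaled to a common library size. The keratin genes KRT8 (752 to 1174 CPM) and KRT18 (301 to 628 CPM) were high in every library, while the epithelial adhesion genes CDH1 (0.169 to 1.59 CPM) and EPCAM (0.681 to 1.93 CPM) were near the lower limit. The other keratin genes checked were KRT7 (388 to 1037 CPM) and KRT19 (16.8 to 23.1 CPM). VIM (822 to 1114 CPM) and CDH2 (247 to 375 CPM) were also high in every library. The leukocyte gene PTPRC reached at most 0.0858 CPM, the fibroblast gene DCN 0.0793 CPM and the macrophage gene CD68 0.300 CPM, and the T cell gene CD3E had 0 counts in each library. The endothelial genes VWF and PECAM1 reached at most 0.602 and 0.595 CPM, while COL1A1 (51.5 to 107 CPM) and ACTA2 (11.7 to 22.9 CPM), genes of mesenchymal cells, were measured in all libraries.

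Processed pseudogenes are copies of mature messenger RNAs that were written back into the genome by the enzymes of mobile elements. They lack the introns of the parent gene, usually start without a promoter of their own, and often end in a run of adenines. Ribosomal protein genes are among the most strongly and evenly expressed genes of a human cell and have left more such copies than most other gene families. Because a young copy is nearly identical to its parent, a read of the abundant parent messenger RNA can be placed on the copy by a sequencing error, and a read of the copy can be lost because it fits both places equally well. The authors ignored reads that mapped to several places and reads that overlapped several genes, so a copy could be counted only where it, or its flank, differed from every other place.

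All 46 members were annotated with 1 exon on GRCh38, with lengths from 81 to 1284 bases and a median of 555 bases, on 19 chromosomes. Aligned to the canonical messenger RNA of the parent, they joined 201 of the 238 exon junctions of their parents without a gap, and each member joined at least 1. Identity to the parent had a median of 98.9%, was 98% or more in 39 members and reached 100% over the aligned bases in 6, RPL41P1, RPL36AP37, RPL39P3, RPS28P7, RPL21P16 and RPL22P1. The lowest values were 75.1% in RPL13P8, 83.2% in RPL7AP45 and 94.9% in RPL12P14. In 34 members at least 9 of the 30 bases after the annotated end were adenines. In 24 members the reading frame of the parent was open over its whole length, and in 11 the open frame differed from the parent's in codon number. These differences ran from small, as in RPL29P4 (157 codons against 159), to large, as in RPL12P14 (2 against 165). In the other 11 members no start codon aligned or no stop lay inside the annotated span.

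The stretches below show how 4 of the members that the results turn on differ from their parents. For RPL12P14 and RPL13AP20 the stretch of 120 bases with the most mismatches was taken, so it is not typical of the copy. Over all aligned bases RPL12P14 had 25 mismatches in 490 and RPL13AP20 had 20 in 609. Each pair covers the same part of the parent coding sequence, written 5′ to 3′ from GRCh38, and capitals mark bases of the pseudogene that differ from the parent. Base positions are counted from 1 at the first base of the start codon, and the parent stretches are spliced coding sequence.
RPL12, coding positions 322 to 441: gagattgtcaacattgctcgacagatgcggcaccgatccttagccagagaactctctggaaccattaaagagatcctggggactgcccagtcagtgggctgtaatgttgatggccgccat
RPL12P14, chr1:15793113-15793232, plus strand: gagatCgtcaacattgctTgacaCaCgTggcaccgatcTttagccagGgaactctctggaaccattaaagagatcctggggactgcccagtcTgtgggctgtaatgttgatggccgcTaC
RPL12P4, chr20:55074964-55075083, plus strand: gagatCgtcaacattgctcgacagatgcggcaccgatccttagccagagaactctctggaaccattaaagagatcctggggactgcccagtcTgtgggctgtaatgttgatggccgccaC
RPL13A, coding positions 184 to 303: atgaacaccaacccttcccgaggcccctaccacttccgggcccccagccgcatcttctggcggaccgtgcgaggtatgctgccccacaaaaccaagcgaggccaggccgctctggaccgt
RPL13AP20, chr12:12875682-12875801, plus strand: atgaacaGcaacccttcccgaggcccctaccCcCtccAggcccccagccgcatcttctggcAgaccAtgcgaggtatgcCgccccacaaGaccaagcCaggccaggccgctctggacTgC
RPS15, coding positions 54 to 143: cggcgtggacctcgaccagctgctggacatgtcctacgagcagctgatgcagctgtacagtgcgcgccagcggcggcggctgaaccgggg
RPS15P4, chr2:171517565-171517663, minus strand: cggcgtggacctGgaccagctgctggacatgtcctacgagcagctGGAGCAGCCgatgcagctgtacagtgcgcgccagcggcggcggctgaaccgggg

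The RPL12P14 stretch held 10 mismatches and the RPL12P4 stretch 3, and the 3 of RPL12P4, T327C, A414T and T441C, were also in RPL12P14. RPL13AP20 differed at 11 bases of its stretch. RPS15P4 carried 9 inserted bases, the run of capitals in the middle of its stretch, and an open frame of 148 codons against 145 in RPS15. Across 100-base windows of the members, a median of 65.3% occurred at 1 place in the genome and in no coding transcript. The share was 0% in RPL39P3, 3.31% in RPL21P16 and 6.83% in RPL36AP37, and 100% in RPL12P14, RPL13P8, RPL10AP6, RPL32P18 and RPL24P8. With coding transcripts left aside, 77.7% of the windows of RPL39P3 occurred at 1 place in the genome. It had 152 to 336 counts per library, and how many were reads of RPL39 was not tested.

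Member levels spanned a wide range and a few copies held much of the reads. RPS2P5, a copy of the small subunit gene RPS2, had the highest level at 152 ± 15.4 CPM (SD, n = 3) in control libraries. RPL13P12 followed at 94.97 ± 13.9 CPM and RPL41P1 at 57.1 ± 3.64 CPM, and these 3 members held 40.1% of all member counts. Per length over all libraries, RPL41P1 had 597 CPM per kb, RPS2P5 161 CPM per kb and RPL13P12 131 CPM per kb. RPL41P1 is the shortest member, a copy of RPL41, which encodes the smallest ribosomal protein. At 81 bases it is shorter than a sequencing read, so its value per kb is inflated beside those of longer members. The median member lay at 7.59 CPM and the lowest, RPL13P8, at 1.45 CPM.

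**Figure D1:**
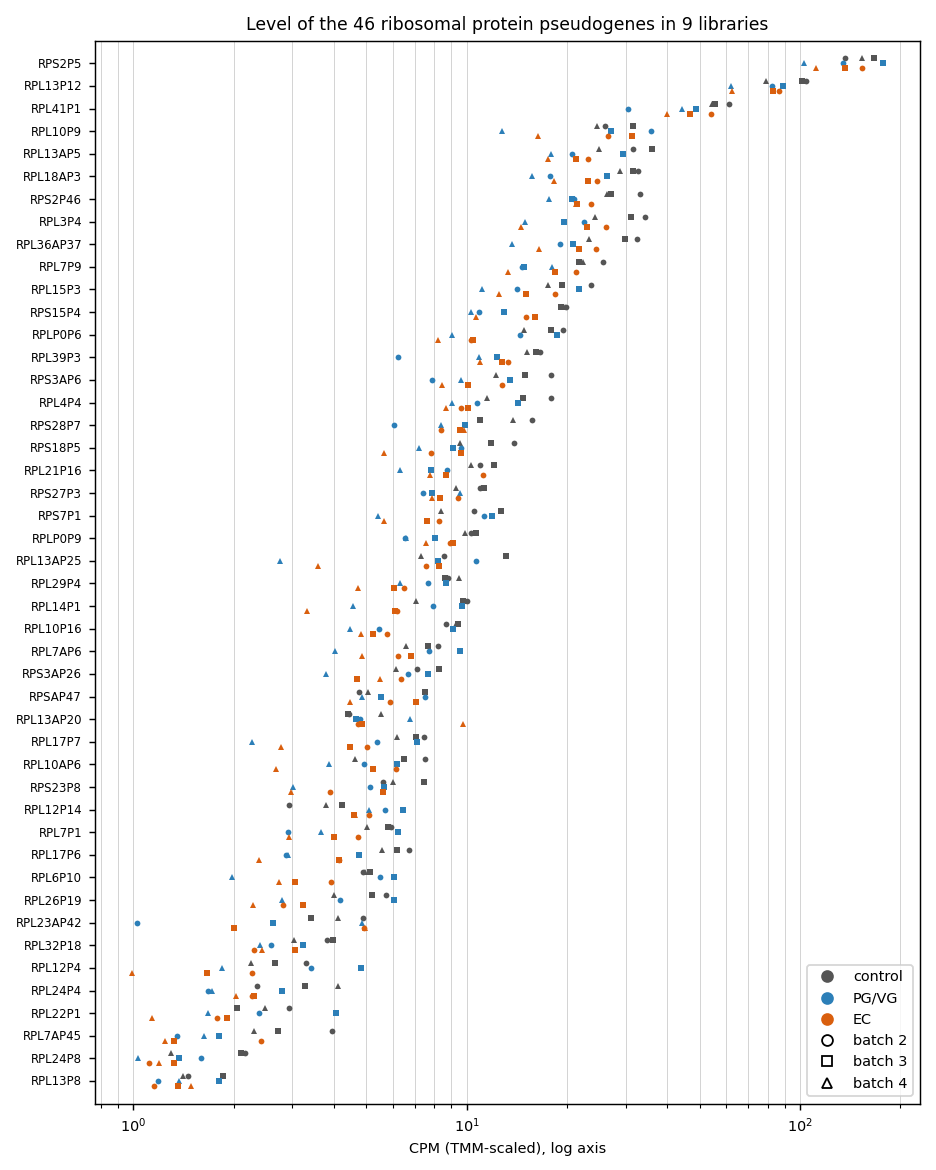
Level of each of the 46 members (rows, ordered by mean) in each of the 9 libraries as CPM on a log axis. Color gives the group and symbol the batch. RPS2P5 lies highest and RPL13P8 lowest. All dark control points lie to the right of all EC points in 22 members and of all PG/VG points in 13.

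The threshold of 20 counts cut through a continuous range. The members just inside were RPL12P4, with a lowest count of 20, and RPL22P1, RPL13P8 and RPL24P8, each with 23. Just outside were RPS27P4 and RPS3P3, each with a lowest count of 19, and RPL37P2 with 18. All 46 members passed the filter for testing, since it asked for less than the rule that chose them.

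Compared with the control, EC-exposed cells had lower levels of many ribosomal protein pseudogenes. Of the 46 members, 21 fell and 0 rose at an adjusted p under 0.05, against 5.38% of all 16030 genes tested that fell and 8.07% that rose. The LFC (log2 fold change, EC over control) was below 0 in 44 members and had a median of −0.51, while the median of all genes was 0.01. At an unadjusted p under 0.05, 39 members differed, against 27.4% of all genes, and DESeq2 also gave 21 lower and 0 higher. The LFC of the 21 ran from −0.30 in RPL13P12 to −0.86 in RPLP0P6, and each of the 21 was lower in all 3 batches. Without the batch in the model, edgeR gave 0 members at an adjusted p under 0.05 and 18 at an unadjusted p under 0.05, and 16 of all genes passed. Without control replicate 4 the count was 14, where 591 of all 15924 genes fell and 890 rose.

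Among copies of large subunit genes, 15 of 35 fell. RPLP0P6, a copy of the gene for the stalk protein P0, showed the largest decrease of the whole set. It stood at 19.5, 18.0 and 14.9 CPM in the controls of batches 2, 3 and 4, at 14.4, 18.7 and 9.05 CPM after PG/VG, and at 10.3, 10.4 and 8.18 CPM after EC. The EC libraries all lay below the controls, while the PG/VG libraries spread over both. The LFC was −0.86 (SE 0.13, adjusted p = 0.000124), a level 0.551 times that of the control. RPL14P1 went from between 7.04 and 10.0 CPM in controls to between 3.32 and 6.19 CPM after EC (LFC −0.80, SE 0.15, adjusted p = 0.000772). Here too the groups did not overlap.

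RPL26P19 (LFC −0.85), RPL7AP45 (−0.84), RPL17P6 (−0.81), RPL10P16 (−0.79), RPL17P7 (−0.79) and RPL12P4 (−0.76) followed. Smaller decreases were measured in RPL29P4 (−0.64), RPL4P4 (−0.63), RPL13AP5 (−0.57), RPL3P4 (−0.51), RPL18AP3 (−0.50), RPL36AP37 (−0.46) and RPL13P12 (−0.30). RPL3 and RPL4 reach deep into the large subunit, where they contact ribosomal RNA. Of the 21 members called, 12 kept an adjusted p under 0.05 in each of the 9 fits that left out 1 library. RPL12P4 and RPS28P7 kept it in 4 of 9 and RPL7AP45 in 5 of 9, with adjusted p-values up to 0.204, 0.262 and 0.167.

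Among copies of small subunit genes, 6 of 11 fell. These were RPS23P8 (LFC −0.64), RPS18P5 (−0.62), RPS7P1 (−0.56), RPS28P7 (−0.55), RPS15P4 (−0.50) and RPS2P46 (−0.38). RPS23 lies near the decoding center of the ribosome. RPS2P46 stood at 33.2, 27.1 and 26.4 CPM in controls and at 23.7, 21.4 and 21.3 CPM after EC, with no overlap of the groups. RPS2P5, from the same parent, had an LFC of −0.20 (SE 0.14, adjusted p = 0.437) and its groups overlapped. Control and EC libraries did not overlap in 23 members in all, 22 of them lower and 1, RPL12P14, higher, where 7.42% of all genes had non-overlapping groups with EC lower and 9.83% with EC higher.

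After PG/VG alone the members were also lower than in the control, with fewer calls. At an adjusted p under 0.05, 13 members fell and 1 rose, against 1.9% of all genes that fell and 2.63% that rose. The LFC was below 0 in 41 members with a median of −0.43, beside 0.01 for all genes, and 28 members differed at an unadjusted p under 0.05, against 20.1% of all genes. DESeq2 gave 13 lower and 0 higher. The same control libraries served both comparisons, so their values are not independent. Leaving out PG/VG replicate 2 lowered the count of 14 to 6, while leaving out control replicate 4 gave 7, and control replicate 2 or PG/VG replicate 4 gave 8. Of all 15859 genes, 62 fell and 130 rose without PG/VG replicate 2. Without the batch in the model, edgeR gave 0 members, with 18 at an unadjusted p under 0.05, and 1 of all genes passed.

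The lower members were 10 copies of large subunit genes and 3 of small subunit genes. The largest decreases at an adjusted p under 0.05 were in RPL17P6 (LFC −0.84), RPS15P4 (−0.80), RPS28P7 (−0.75), RPL39P3 (−0.73), RPL36AP37 (−0.69), RPL18AP3 (−0.66) and RPL3P4 (−0.66). RPL21P16 (−0.55), RPLP0P9 (−0.55), RPS2P46 (−0.55), RPL7P9 (−0.54), RPL13AP5 (−0.45) and RPL13P12 (−0.29) made up the rest. RPS15P4 stood at 19.8, 19.2 and 19.7 CPM in controls and at 10.9, 12.9 and 10.3 CPM after PG/VG, with 15.1, 16.002 and 10.7 CPM after EC. Its control values were within a narrow range and both exposed groups lay below them. The LFC for PG/VG was −0.80 (SE 0.12, adjusted p = 0.000429) and for EC −0.50 (SE 0.12, adjusted p = 0.00571). EC over PG/VG gave 0.30 (SE 0.12, adjusted p = 0.276).

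Of the 14 calls, 5 held in each of the 9 fits without 1 library, those of RPS2P46, RPL18AP3, RPL36AP37, RPL3P4 and RPS15P4. RPL39P3, a copy of the gene for a small exit-tunnel protein, stood at 16.6, 16.1 and 15.2 CPM in controls and at 6.23, 12.4 and 10.9 CPM after PG/VG. The batch 2 value was well below the other PG/VG values, and the call held in 3 of 9 fits. RPL36AP37 was measured at 32.5, 29.9 and 23.3 CPM in controls and 19.0, 20.9 and 13.7 CPM after PG/VG (LFC −0.69, SE 0.09, adjusted p = 0.000256). The PG/VG values all lay below the controls. Control and PG/VG libraries did not overlap in 14 members, 13 lower and 1 higher, where 6.37% of all genes had non-overlapping groups with PG/VG lower and 7.79% with PG/VG higher.

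RPL12P14 was the one member that rose. RPL12 encodes a protein of the stalk base of the large subunit, and RPL12P14 is one of 2 members copied from it. RPL12P14 stood at 2.92, 4.21 and 3.77 CPM in controls, at 5.69, 6.46 and 5.10 CPM after PG/VG and at 5.08, 4.596 and 4.61 CPM after EC. All exposed libraries lay above the controls. The LFC was 0.65 for PG/VG (SE 0.17, adjusted p = 0.0287) and 0.39 for EC (SE 0.17, adjusted p = 0.145). Under DESeq2 the PG/VG value had an adjusted p of 0.0545, and 4 of 9 fits without 1 library kept it under 0.05.

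Between EC and PG/VG few members differed. At an adjusted p under 0.05, 1 member was lower and 0 were higher in EC, against 0.299% of all genes lower and 0.555% higher. The median LFC of EC over PG/VG was −0.07, with 27 members below 0 and 11 at an unadjusted p under 0.05, against 12.9% of all genes. The groups did not overlap in 2 members, RPL12P14 with EC lower and RPS2P46 with EC higher, where 3.37% and 4.54% of all genes did so. The member that passed the adjusted p was RPL12P4, at 3.40, 4.81 and 1.84 CPM after PG/VG and 2.26, 1.66 and 0.992 CPM after EC. EC was lower in each batch, but the groups overlapped across batches. The LFC was −0.9998 (SE 0.24, adjusted p = 0.0439), it rested on 20 to 88 counts per library, and 3 of 9 fits without 1 library kept the call. Without PG/VG replicate 3 the LFC was −0.67 (adjusted p = 0.265), and with DESeq2 the adjusted p was 0.0562, with 0 members called and 9 at an unadjusted p under 0.05. RPLP0P6 had an LFC of −0.51 (SE 0.13) with an adjusted p of 0.0609.

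To ask how each copy moved against its parent, the parent counts of the same library were used as the reference in a second fit. The parents themselves were lower in both exposures. Of the 34, 20 fell in EC (median LFC −0.27) and 23 fell in PG/VG (median LFC −0.30), and none rose by edgeR at an adjusted p under 0.05, with 0 higher also at an unadjusted p under 0.05 and 0 higher by DESeq2. Over a list of 80 cytosolic ribosomal protein genes, written from general knowledge, 50 fell in EC (median LFC −0.28) and 47 fell in PG/VG (median LFC −0.29). For all genes tested, the share that fell was 5.38% in EC and 1.9% in PG/VG. Between EC and PG/VG, 0 of 34 parents differed by edgeR, with 0 at an unadjusted p under 0.05 and 0 by DESeq2.

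**Figure D2:**
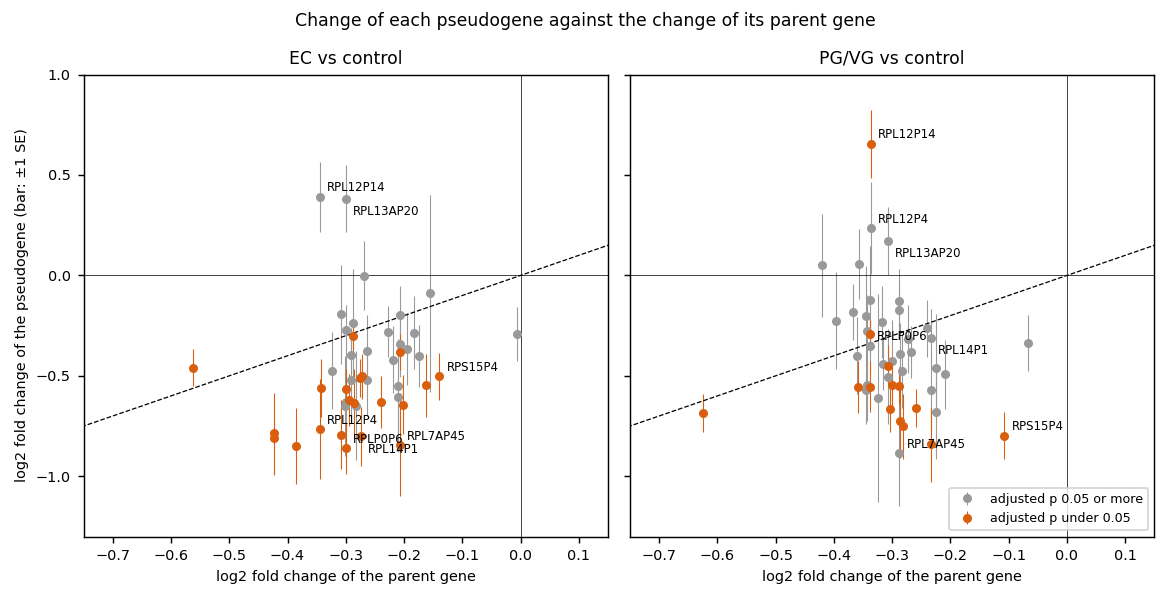
LFC of each of the 46 members (vertical axis, bars ±1 SE) against the LFC of its parent (horizontal axis) in the EC and the PG/VG comparison with controls. On the dashed line both change alike. Most points lie below the line, and RPL12P14 and RPL13AP20 lie above 0 in both panels while their parents lie below 0.

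Relative to the parent, 4 members fell and 2 rose in EC at an adjusted p under 0.05, where 13.3% of all genes passed in that fit. The relative LFC was below 0 in 37 of 46 members, with a median of −0.24. In PG/VG, 3 members fell and 1 rose, where 4.45% of all genes passed, and 32 of 46 were below 0 with a median of −0.13. Between EC and PG/VG, 2 members were lower in EC, where 0.855% of all genes passed, and the median was −0.11. Only the members had a parent as reference in that fit, so the shares of all genes are of changes in level. In EC the share of members that passed was about that of all genes. Leaving out control replicate 2 lowered the 6 calls in EC to 3, and leaving out control replicate 2 or PG/VG replicate 2 lowered the 4 calls in PG/VG to 2. Without the batch 0 members passed in any of the 3 comparisons, with 7, 5 and 6 at an unadjusted p under 0.05. As a share of the summed parent counts, the members together made up 3.59% to 3.65% in the control libraries, 3.199% to 3.82% in PG/VG and 3.24% to 3.41% in EC.

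RPLP0P6 fell relative to RPLP0 in EC. Its counts were 1.13%, 1.05% and 1.03% of the RPLP0 counts in controls, 1.13%, 1.30% and 0.800% after PG/VG, and 0.672%, 0.771% and 0.757% after EC. The EC values lay below all others and the PG/VG values spread widely. The relative LFC was −0.56 for EC vs control (SE 0.13, adjusted p = 0.00574), −0.01 for PG/VG vs control (SE 0.13, adjusted p = 0.982) and −0.55 for EC vs PG/VG (SE 0.13, adjusted p = 0.0417). The first was called in all 9 fits without 1 library, the last in 5 of 9, with an adjusted p of 0.294 without PG/VG replicate 2.

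RPL14P1 (relative LFC −0.54, adjusted p = 0.0159), RPL29P4 (−0.45, adjusted p = 0.0354) and RPS15P4 (−0.37, adjusted p = 0.0234) also fell relative to their parents in EC, and these calls held in 6, 4 and 5 of 9 fits without 1 library. RPL7AP45 had a relative LFC of −0.66 that missed the threshold (adjusted p = 0.0936). RPS15P4 made up 5.00% ± 0.335 (SD, n = 3) of RPS15 counts in controls, 3.11% ± 0.203 after PG/VG and 3.86% ± 0.2505 after EC. These shares did not overlap between the 3 groups. In PG/VG its relative LFC was −0.69 (SE 0.11, adjusted p = 0.000869), and RPS15 itself had an LFC of −0.11 (adjusted p = 0.444). RPL3P4 (−0.40, adjusted p = 0.0131) and RPL18AP3 (−0.36, adjusted p = 0.0433) fell relative to their parents in PG/VG, in 5 and 4 of 9 fits without 1 library.

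RPL12P14 rose relative to RPL12 in both exposures. It went from 0.652% ± 0.173 of RPL12 counts (SD, n = 3) to 1.29% ± 0.211 after PG/VG and 1.09% ± 0.265 after EC. The relative LFC was 0.99 (SE 0.17, adjusted p = 0.00135) and 0.74 (SE 0.17, adjusted p = 0.0052), and both were called in all 9 fits without 1 library. RPL13AP20, a copy of the large subunit gene RPL13A, rose relative to its parent in EC (relative LFC 0.70, SE 0.185, adjusted p = 0.0145). It stood at 0.397%, 0.473% and 1.35% of RPL13A counts in EC of batches 2, 3 and 4. The batch 4 value was far above the others, and without EC replicate 4 the relative LFC was 0.39 with an adjusted p of 0.217.

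**Figure D3:**
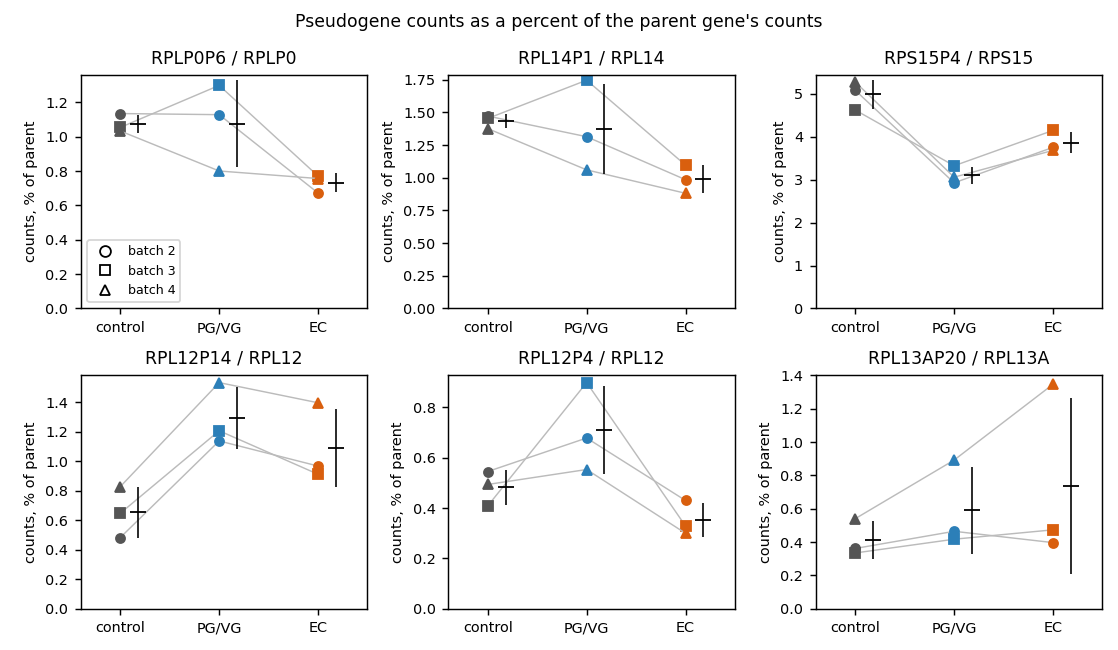
Counts of 6 members as a percent of the counts of their parents in each library, from 0. Grey lines join the 3 libraries of a batch, and the black dash with bar is the mean ± SD of a group (n = 3). RPLP0P6 and RPL14P1 drop in EC, RPS15P4 drops in both exposures, and RPL12P14 lies higher in both.

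RPL12P4, unlike RPL12P14, had a relative LFC below 0 in EC (−0.44), while in PG/VG both copies lay above 0 (0.56 for RPL12P4). It made up 0.483% ± 0.0689 of RPL12 counts in controls, 0.710% ± 0.175 after PG/VG and 0.353% ± 0.0685 after EC. EC against PG/VG gave a relative LFC of −0.9965 (SE 0.23, adjusted p = 0.0362), while neither exposure differed from the control at an adjusted p under 0.05 (0.254 for EC, 0.153 for PG/VG). Without PG/VG replicate 3 the EC against PG/VG value was −0.70 with an adjusted p of 0.233.

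The level of a copy against its parent varied widely. The median member had 1.74% of its parent's counts in controls, 15 members had under 1% and 5 had 10% or more. RPL36AP37, identical to RPL36A over its 321 bases, had 971% of the RPL36A counts, and RPL36A itself was at 2.95 ± 0.30 CPM in controls. RPL17P7 and RPL17P6 had 52.1% and 46.5% of the counts of RPL17, which was at 13.4 ± 1.32 CPM. RPS2P5 and RPL41P1, at 10.8% and 12.7%, had parents with high levels, RPS2 at 1263 CPM and RPL41 at 409 CPM over all libraries. The values of RPL36AP37, RPL17P7 and RPL17P6 relative to the parent rest on few parent counts. Exons of other genes, among them RPL36A-HNRNPH2 and RPL17-C18orf32, overlapped 22.45% of the exon bases of RPL36A and 35.54% of those of RPL17. These shares are of the exons of all annotated transcripts, 3965 and 2451 bases, where the canonical transcripts hold 761 and 614. The share of parent reads lost was not measured. Reads that overlapped several genes were not counted, so these counts can understate the level of the parent. RPL10, with 53.39% of its exon bases overlapped, was at 674 CPM over all libraries.

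Of the parents, 11 had more than 1 member, and copies of 1 parent did not always move alike. RPL13A had 3: in EC the LFC was −0.57 for RPL13AP5, −0.63 for RPL13AP25 and 0.38 for RPL13AP20, whose identity to the other 2 was 96.9% and 95.1%. RPL12P4 and RPL12P14, at 95.7% identity to each other, had LFCs of −0.76 and 0.39 in EC. RPLP0P9, a copy of 295 bases of RPLP0, fell in PG/VG (LFC −0.55) and had an LFC of −0.27 in EC (adjusted p = 0.156), while RPLP0P6 had −0.35 in PG/VG (adjusted p = 0.114). RPL17P6 and RPL17P7, 99.3% identical, had LFCs of −0.81 and −0.79 in EC. RPL7P9 and RPL7P1 had −0.40 and −0.52. RPL13AP25 and RPL7P1 were named after their values were seen. Differences between copies of 1 parent were not tested.

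The 6 members least like their parents did not move alike. RPL12P14 (94.9%) and RPL13AP20 (96.7%) had LFCs above 0 in both exposures. RPSAP47, at 96.8% identity to RPSA, had values near 0 in both (0.06 in PG/VG, adjusted p = 0.893). It was named after its values were seen. RPL13P8, the least like its parent, had −0.24 and −0.12. RPL24P8, at 97.03%, had −0.61 (adjusted p = 0.150) and −0.46 (adjusted p = 0.353). RPL7AP45, at 83.2%, fell in EC with −0.84 and had −0.89 in PG/VG (adjusted p = 0.0527).

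Over the 46 members, Spearman's rho between identity and LFC was 0.08 in EC and −0.45 in PG/VG (Pearson's r −0.08 and −0.12). Between the share of windows found only at the pseudogene and the LFC, rho was 0.06 in EC and 0.52 in PG/VG (r 0.17 and 0.51). These are descriptions over members that share the 9 libraries, the controls and, in part, their sequence. In PG/VG, the members with the smallest share of such windows, RPL39P3, RPL21P16 and RPL36AP37, were all among those that fell.

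**Figure D4:**
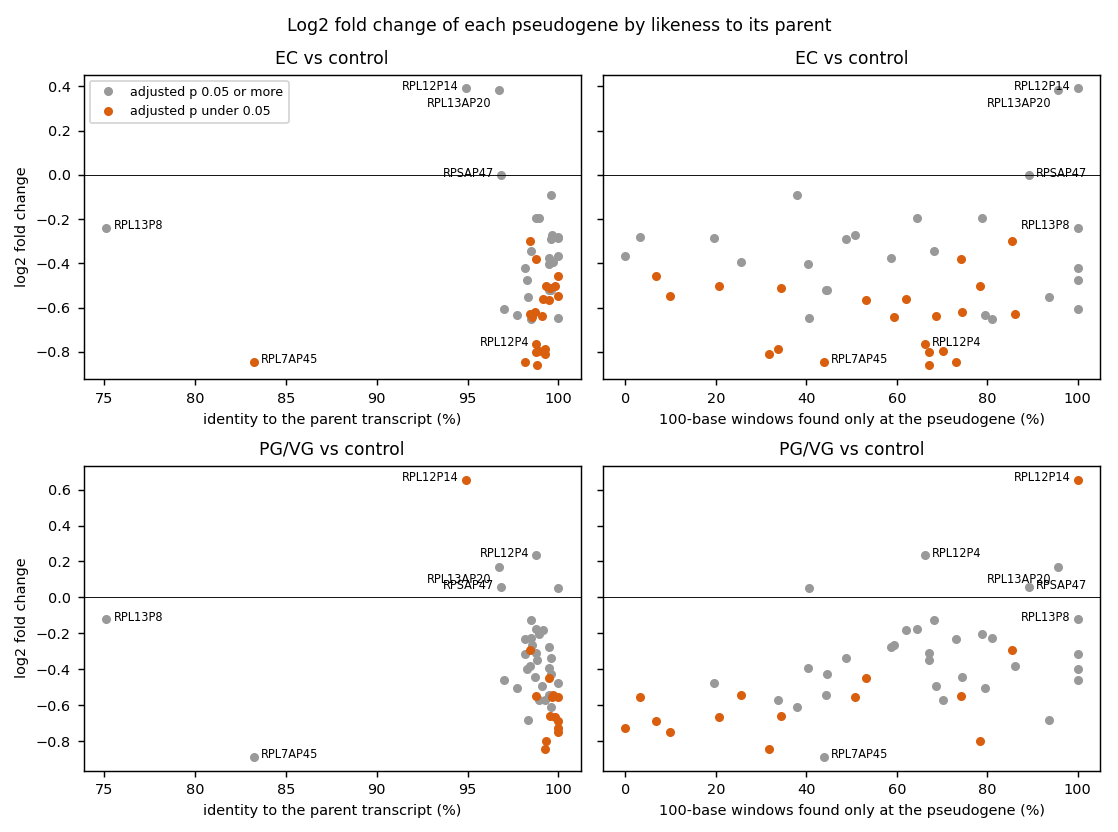
LFC of each member against its identity to the parent (left) and the share of its 100-base windows found only at the pseudogene (right), for EC (top) and PG/VG (bottom), each over control. Orange points passed an adjusted p under 0.05. RPL12P14 and RPL13AP20 lie above 0 in every panel, and in the lower right panel RPL7AP45 lies lowest at −0.89.

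Of the members, 24 lay inside another gene, 18 inside one on the opposite strand and 9 inside one on the same strand. Exons of another gene overlapped only RPL10P16 (13.8%) and RPL23AP42 (71.3%), as far as the annotation goes. The strand setting of the counting was not given in the sources used here, so reads of a member and of a gene on the other strand cannot be told apart. Of the 20 host genes with enough counts for a test, 0 fell by edgeR or by DESeq2 in EC or in PG/VG, with 1 lower at an unadjusted p under 0.05 in each, while ComBat-Seq followed by DESeq2 gave 1 lower in each. In EC 2 rose, SMOC1, a secreted matrix protein gene around RPL7AP6, and TSPAN9, a tetraspanin gene around RPS27P3. TXNRD1, the thioredoxin reductase gene, holds RPL18AP3 and was at 1128 CPM with LFCs of 0.13 in EC and −0.02 in PG/VG, while RPL18AP3 had −0.50 and −0.66. PLEKHA7, a junction protein gene, holds RPL36AP37 and had LFCs of 0.27 (adjusted p = 0.0561) and 0.26 (adjusted p = 0.124). Other hosts were lower, as their members were, and 9 of the 20 tested lay below 0 in each exposure. The same-strand noncoding host of RPL7AP45, at 0.602 CPM, had −0.47 after EC (adjusted p = 0.502) and −0.43 after PG/VG (adjusted p = 0.605). TAOK3, around RPS2P5, had −0.23 after EC (adjusted p = 0.0783). MAP3K13, around RPL4P4, had −0.25 after PG/VG (adjusted p = 0.142). Whether hosts and members moved together was not tested.

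RPLP0P6 lies within LINC02613, a long noncoding RNA gene on the opposite strand that was at 0.0213 CPM. The nearest protein-coding or long noncoding RNA gene to RPL12P14 was FBLIM1, 6202 bases away on the same strand, at 123 CPM with LFCs of −0.41 in EC and −0.18 in PG/VG. For RPL13AP20 it was GPRC5A, 15452 bases away, at 269 CPM with LFCs of 0.03 and 0.01. For RPL12P4 it was LINC01440, 333758 bases away and at 0 counts. FBLIM1 fell in EC (adjusted p = 0.000506), where RPL12P14 had an LFC above 0.

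Within batches, the median difference of the members between EC and control was −0.39, −0.45 and −0.55 in batches 2, 3 and 4, and 39, 44 and 42 of 46 members were lower. For PG/VG it was −0.51, −0.19 and −0.58, with 38, 33 and 42 members lower. Between EC and PG/VG it was 0.07, −0.26 and 0.01. Relative to the parent, the median difference was −0.31, −0.16 and −0.17 for EC and −0.31, 0.09 and −0.20 for PG/VG. The PG/VG library of batch 3 was thus nearer to its control than those of the other batches.

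**Figure D5:**
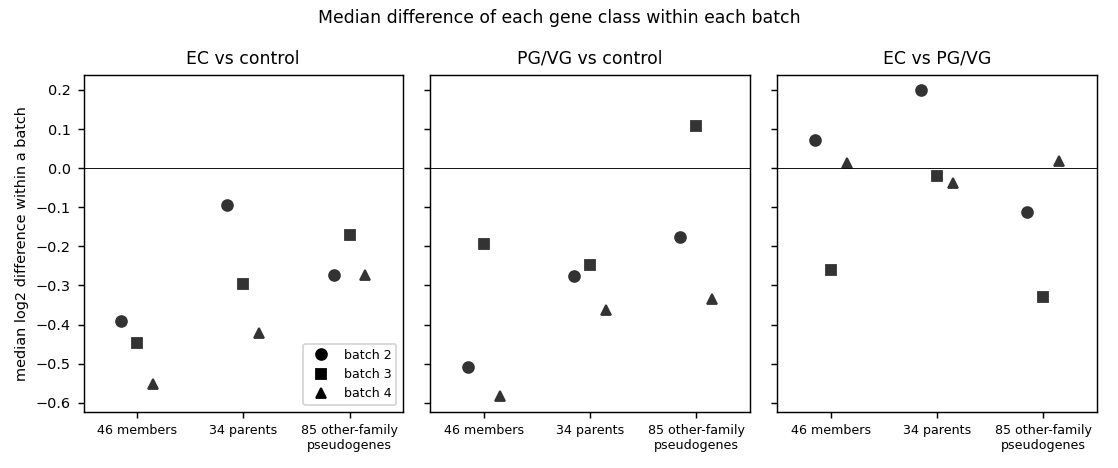
Median log2 difference in CPM within each batch for the 46 members, their 34 parents and 85 pseudogenes of other families, for the 3 comparisons. The members lie below 0 in all batches for both exposures, and batch 3 of PG/VG lies nearest to 0.

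Pseudogenes of other gene families with at least 20 counts in every library, 85 in number, were the class most like the members. Of these, 10 fell and 2 rose in EC with a median LFC of −0.27, where 5.38% of all genes fell and 8.07% rose. After PG/VG, 3 of the 85 fell and 1 rose with a median of −0.15, where 1.9% of all genes fell and 2.63% rose. Between EC and PG/VG, 1 was lower, with a median of −0.20. In PG/VG of batch 3 their median difference from the control was 0.11. The share that fell was larger among the ribosomal protein copies, 21 of 46 against 10 of 85 in EC and 13 of 46 against 3 of 85 in PG/VG, but the difference between the classes was not tested. Library totals also differed between control and exposed groups, and with all libraries thinned to the smallest total 20 members fell in EC, while 14 fell and 1 rose in PG/VG. Of all 15389 genes in that fit, 901 fell and 1146 rose in EC, and 332 fell and 378 rose in PG/VG.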

How the data were processed

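After trimming (fastp) and alignment to GRCh38.p12 (STAR), the authors assigned reads to Ensembl exons with featureCounts (Subread 2.0.4) and left out any read with several map positions or several genes. The deposited table holds raw counts per gene for 9 libraries, with no batch adjustment. Here, 62666 of 63187 gene IDs matched GENCODE 44, which gave symbols, biotypes, parents and coordinates on GRCh38. The 16030 genes that reached 10 counts in 3 or more libraries were tested with edgeR 4.0.16 (R 4.3.3): TMM scaling, robust quasi-likelihood fit with condition and batch over all 9 libraries, Benjamini-Hochberg adjustment over all genes, threshold 0.05. In a second fit the offset of each member was the log of its parent's counts. SE is the LFC divided by the square root of F.

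The labels give the replicate number as the batch, and it was kept in the model for that reason. Correlations of deviations from the group means were 0.40 to 0.77 between same-numbered libraries and −0.62 to 0.51 between others; batch 4 stood apart, while libraries of batches 2 and 3 correlated across numbers about as highly as within them. Library totals of 16168260 to 24917838 counts set the precision. Sequences were read from GRCh38 and aligned with Biopython. The sequence of 1 member pair is not reported here. Members and gene lists were chosen with earlier results of these data known. Named were members at an adjusted p under 0.05, RPLP0P6, RPL12P4, the highest 6 by level, the 5 largest changes relative to the parent per exposure, 3 on each side of the threshold and the extremes of identity and of unique windows, with parents and host genes; RPSAP47, RPL13AP25, RPL7P1, RPL23AP42, RPL7AP6, RPS27P3 and neighboring genes were added after their values were seen. DESeq2 1.42.0, ComBat-Seq (sva 3.50.0), other scalings, filters and thresholds, the 2 groups alone, each library left out and counts thinned to the smallest library, the last chosen after seeing the data, were tried as alternatives. Fits were tested on simulated data.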

Additional observations from a re-analysis of the deposited data

Results flagged for a closer look

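EC and PG/VG, both set against the control, had effects on RPL12P4 that differed by the direct test, with an LFC of EC over PG/VG of −0.9998 (edgeR, adjusted p = 0.0439) and of −0.9965 relative to RPL12 (adjusted p = 0.0362). In each batch the EC value was the lower one, on counts of 20 to 88 per library. RPLP0P6 differed in the same test relative to RPLP0, with a relative LFC of −0.55 (adjusted p = 0.0417), and EC was the lower one in 3 of 3 batches. No group was large enough for a search for single libraries far from the rest.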

How the results depend on the processing

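The counts of members at an adjusted p under 0.05 were 21 for EC vs control, 14 for PG/VG vs control and 1 for EC vs PG/VG, and 6, 4 and 2 relative to the parent. Dropping the batch (replicate block) from the model gave 0 in all 6, with 18, 18 and 3 members at an unadjusted p under 0.05 and 7, 5 and 6 relative to the parent, and of all genes 16, 1 and 1 passed. With no filter beyond 1 count, PG/VG vs control gave 22 and EC vs PG/VG 2. Of all 35230 genes, 327 fell and 609 rose in the first, and 144 fell and 165 rose in the second. ComBat-Seq followed by DESeq2 gave 22 and 4 members. There, of all 16100 genes, 949 fell and 786 rose in PG/VG vs control, and 359 fell and 299 rose in EC vs PG/VG. The main fit had 305 and 422, and 48 and 89, of 16030 genes. With the 2 groups alone EC vs PG/VG gave 2, with DESeq2 0 (9 at an unadjusted p under 0.05), with thinned counts 0 (8) and among members with at least 50 counts 0. Relative to the parent, EC vs PG/VG gave 1 with thinned counts and 1 among members with at least 50 counts. At an adjusted p under 0.01 the counts were 5 for PG/VG vs control and 0 for EC vs PG/VG, and relative to the parent 2, 2 and 0.

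Leaving out 1 library gave 14 to 28 for EC vs control, 6 to 19 for PG/VG vs control and 0 to 2 for EC vs PG/VG, and relative to the parent 3 to 9, 2 to 5 and 0 to 2. The median LFC ran from −0.57 to −0.41, −0.51 to −0.33 and −0.11 to 0.06, and relative to the parent from −0.31 to −0.16, −0.21 to −0.04 and −0.15 to −0.04. The median for EC vs PG/VG turned above 0 without PG/VG replicate 3 (0.06) or EC replicate 3 (0.02). No called member changed direction in any alternative. RPL12P4, with 20 counts in its lowest library, is among the members whose depth limits the comparison most.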
